A study of Caenorhabditis elegans with 3 samples.

Results

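The unfolded protein response and endoplasmic reticulum (ER) folding genes described here are 10 genes of the nematode Caenorhabditis elegans, of 19973 nuclear protein-coding genes in the annotation. They were taken by name: the stress sensors ire-1, atf-6 and pek-1, the transcription factor xbp-1, the chaperones hsp-3, hsp-4 and enpl-1, and the protein disulfide isomerases pdi-2, pdi-3 and pdi-6. All 10 names matched the annotation. The rule itself uses no measured value, but the set was proposed with earlier results of these data known. Every binding summit of the transcription factor PQM-1 within 5 kb of each gene was collected from the deposited peak lists. The data are ChIP-seq, that is, sequencing of DNA recovered with PQM-1 by immunoprecipitation, from whole L4 larvae of strain OP201, with the sexes pooled. This strain carries unc-119(tm4063) on chromosome III and wgIs201, a stably expressed transgene that adds GFP and FLAG to the C-terminal end of PQM-1, so occupancy is that of the tagged protein. All 3 libraries belong to 1 group. Biological replicate 1 gave 2 of them, as technical repeats, and biological replicate 2 gave 1. There was no second condition, and all comparisons below are between genes, sites or replicates.

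In C. elegans, IRE-1, ATF-6 and PEK-1 sit in the ER membrane and respond when unfolded proteins accumulate in the ER. IRE-1 is a kinase and endoribonuclease that starts the splicing of xbp-1 mRNA, PEK-1 is the homologue of the kinase PERK that phosphorylates the translation initiation factor eIF2α, and ATF-6 is a membrane-bound transcription factor. Spliced XBP-1 turns on genes for chaperones such as HSP-3 and HSP-4, the worm homologues of BiP, and for enzymes that help secreted proteins fold. PQM-1 is a zinc finger factor that has been tied to the DAF-16-associated element (DAE), TGATAAG, a word with the GATA core GATAA inside it.

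The sequences of 7 windows are shown because they hold the contrasts that run through the results. All are from the C. elegans reference genome, build ce11 (WBcel235), written 5′ to 3′ on the strand of the gene, and cut short where an annotated exon begins. The first pair are the strongest member windows, the xbp-1 promoter (chrIII:4193636-4193808, plus strand) and a site upstream of ire-1 (chrII:8127361-8127561, minus strand). Capitals mark GATAA or TGATAAG on either strand. The next lines are 3 promoter windows with none of these words, those of atf-6 (chrX:12480507-12480707, plus strand), enpl-1 (chrIV:11119161-11119297, plus strand) and pdi-6 (chrX:7068564-7068702, minus strand). The last pair are stretches next to the starts of hsp-3 (chrX:6092178-6092328, minus strand) and hsp-4 (chrII:7352650-7352800, minus strand), in which capitals mark TGACGTG, or its reverse complement, the core of the unfolded protein response element.
xbp-1 promoter: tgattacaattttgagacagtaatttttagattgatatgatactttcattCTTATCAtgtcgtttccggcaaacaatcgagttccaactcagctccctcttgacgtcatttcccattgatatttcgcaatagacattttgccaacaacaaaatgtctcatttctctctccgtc
ire-1 upstream: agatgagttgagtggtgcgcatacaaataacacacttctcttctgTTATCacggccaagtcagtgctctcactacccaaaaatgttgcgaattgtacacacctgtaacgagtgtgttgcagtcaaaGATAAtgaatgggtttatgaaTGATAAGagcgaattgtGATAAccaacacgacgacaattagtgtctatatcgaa
atf-6 promoter: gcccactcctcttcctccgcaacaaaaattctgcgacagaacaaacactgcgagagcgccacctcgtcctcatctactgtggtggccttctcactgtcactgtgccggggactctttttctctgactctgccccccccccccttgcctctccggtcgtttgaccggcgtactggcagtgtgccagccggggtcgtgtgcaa
enpl-1 promoter: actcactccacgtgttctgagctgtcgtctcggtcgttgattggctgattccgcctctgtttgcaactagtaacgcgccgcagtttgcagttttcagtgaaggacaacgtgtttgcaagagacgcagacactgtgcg
pdi-6 promoter: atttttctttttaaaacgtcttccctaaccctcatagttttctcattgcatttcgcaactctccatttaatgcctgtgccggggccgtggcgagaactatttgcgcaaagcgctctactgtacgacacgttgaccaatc
hsp-3 start: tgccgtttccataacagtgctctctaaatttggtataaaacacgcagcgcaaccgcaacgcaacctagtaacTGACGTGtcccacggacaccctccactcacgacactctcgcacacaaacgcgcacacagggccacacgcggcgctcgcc
hsp-4 start: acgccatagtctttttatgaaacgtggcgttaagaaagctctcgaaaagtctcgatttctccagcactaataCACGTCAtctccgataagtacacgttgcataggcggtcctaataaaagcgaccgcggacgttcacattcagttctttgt

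PQM-1 occupied the neighbourhood of most of these genes. In the authors' optimal list, the 4739 peaks that passed their irreproducible discovery rate (IDR) threshold, 9 of 10 members had a summit within 5 kb of the gene body, hsp-4 being the exception, against 41.7% of all nuclear protein-coding genes. A summit in the promoter, taken as the stretch between 1000 bp before and 200 bp after the outermost start, was present at 8 of 10, all but pek-1 and hsp-4, against 12.8% of all genes. Counted by the gene whose start was nearest to the summit, it was again 8 of 10, against 17.8%. Of the 5 members on the X chromosome 4 had a promoter summit, where 16.3% of the 2731 X-linked genes did, and of the 5 on autosomes also 4, where 2109 of 17242 genes did. The members are few and were picked as a set with such results known, so these shares are descriptions and carry no test. The worms were processed whole, so strong occupancy in few cells and weak occupancy in many cannot be told apart.

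The deposited lists hold no read counts, and the depth behind each peak is unknown. The signal of a peak is the authors' own value against a control alignment, and it ranked peaks within a list only. It ran from 31.5 to 350 in the optimal list, with a median of 55.4. The optimal list was the top of the pooled list: its weakest peak had a signal of 31.4968, and the strongest pooled peak left out of it had 31.495. Including the background peaks that the authors kept for the IDR step, the pooled list held 18821 peaks, replicate 1 24037 and replicate 2 19038. In these longer lists every member had a promoter summit, against 35.2% of all genes in the pooled list, 38% in replicate 1 and 34.8% in replicate 2.

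The 9 members with an optimal peak had 21 summits among them, of which 8 lay in the member's own promoter and 13 elsewhere within 5 kb. For 9 of the 21, a member's start was the nearest protein-coding start. Most of the distal summits therefore lay closer to another gene. All 21 peaks were overlapped by a peak of each replicate, as were 4703 of all 4739 optimal peaks. The replicate lists include background peaks, so this overlap says little about the members. For 18 of the 21, both replicates had a summit within 100 bp, for which no share over all optimal peaks is given here.

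**Figure D1:**
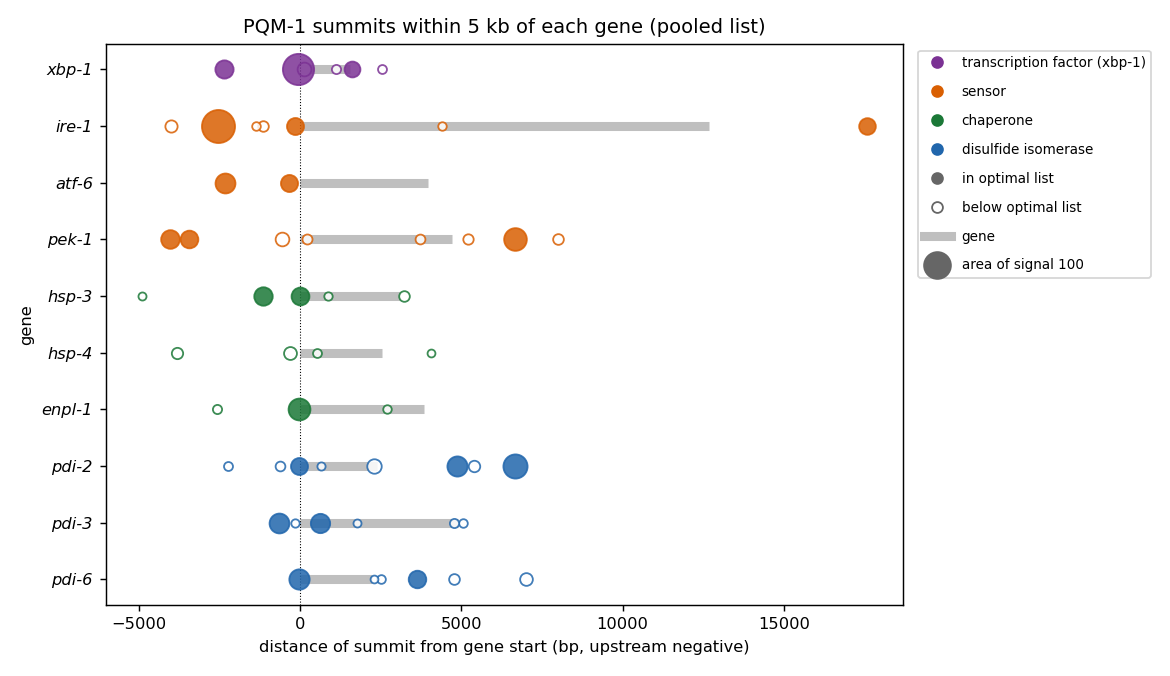
PQM-1 summits of the pooled list within 5 kb of each of the 10 genes, placed by distance in bp from the gene start (upstream negative) with the gene body as a grey bar. Marker area is proportional to the authors' signal, filled markers are in the optimal list (21 summits) and open markers are below it. The largest markers are those upstream of ire-1 and at the start of xbp-1, and hsp-4 has open markers only.

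Among the sensors, the kinase and endoribonuclease gene ire-1 (chromosome II, 8112243 to 8124910, minus strand) had the strongest site. Its signal was 153, the 130th highest of the 4739 optimal peaks, with 53.0 in replicate 1 and 100.9 in replicate 2. This summit lay at −2551 bp from the ire-1 start, in sequence between genes, and at −2499 bp from the start of ulp-4, which is the nearer of the pair. The peak in the ire-1 promoter itself was weaker. Its summit at −141 bp had a signal of 40.4, with 20.3 in replicate 1 and 25.4 in replicate 2. A further summit beyond the end of ire-1, with a signal of 38.7, lay in the promoters of C41C4.9 and chst-1.

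The membrane-bound transcription factor gene atf-6 (chromosome X, 12480948 to 12484904, plus strand) had a promoter summit at −341 bp with a signal of 40.8, with 21.2 in replicate 1 and 23.6 in replicate 2. An upstream summit at −2319 bp was stronger in the optimal list, with a signal of 55.4, and had 14.1 in replicate 1 and 45.8 in replicate 2. The order of the pair thus differed between the replicates, the promoter site being the higher in replicate 1 and the upstream site in replicate 2. The upstream summit was nearer to F45E6.1, at −1188 bp from that gene's start.

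The gene of the remaining sensor, the PERK homologue pek-1 (chromosome X, 11410176 to 11414887, minus strand), had no optimal peak in its promoter. The pooled list had a promoter summit at −543 bp with a signal of 26.2, which is 83.2% of the weakest optimal signal. The replicates had 11.5 (replicate 1, 4005th of its list) and 16.9 (replicate 2, 6341st of its list). Each of the 3 optimal summits within 5 kb was nearer to another gene. One with a signal of 71.9 lay past the end of pek-1 in the promoter of F08B12.4, and those with 43.7 and 48.7 lay at F46C3.2, in an intron and in the promoter.

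The gene xbp-1 (chromosome III, 4193809 to 4195358, plus strand), whose mRNA is the substrate of IRE-1, had the strongest promoter peak of the 10. Its signal was 136, the 218th highest of the 4739, with 48.9 in replicate 1 and 86.8 in replicate 2. The summit lay at −73 bp, the peak was 187 bp wide, and no other protein-coding promoter held it. The replicate 1 list gave the summit at −45 bp and the replicate 2 list at −73 bp. Weaker optimal summits lay at −2358 bp, in an intron of dnj-16, with a signal of 46.4, and at 1601 bp past the start, beyond the end of xbp-1, with 35.1. Across 2517 genes with a promoter peak in all 3 lists, the genes whose rank percentiles in replicate 1, replicate 2 and the pooled list were closest to those of xbp-1 were act-1 (distance 0.112, signal 133), pept-1 (distance 0.212, signal 129) and M01E5.3 (distance 0.234, signal 133), where the distance is Euclidean in percentile points. With so few lists, such closeness says little more than that these peaks are of similar height.

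The BiP homologues hsp-3 and hsp-4 differed in the lists. The promoter of hsp-3 (chromosome X, 6089028 to 6092124, minus strand) had an optimal summit 6 bp past the start, in the 5′ UTR, with a signal of 44.5, with 16.3 in replicate 1 and 35.6 in replicate 2. At hsp-4 (chromosome II, 7350112 to 7352645, minus strand), no optimal summit lay within 5 kb. The pooled list had a promoter summit at −320 bp with a signal of 23.2, 73.6% of the weakest optimal signal. Replicate 1 had a summit at −313 bp with 9.92, the 4709th of its list. Replicate 2 had summits at −67 bp with 15.0 and at −283 bp with 12.4, the 7062nd and 8359th of its list. Both paralogues thus had a listed promoter peak in the pooled list, at 44.5 and 23.2, on either side of the optimal threshold. The lists that hold the hsp-4 peaks include background, so a listed peak there is not evidence of an occupied site. A second optimal summit near hsp-3, with 47.6, lay in the promoter of C15H9.5.

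The gene enpl-1 (chromosome IV, 11119298 to 11123155, plus strand) encodes the worm homologue of endoplasmin (GRP94), the HSP90 chaperone of the ER. Its promoter summit at −37 bp had a signal of 66.6, with 20.4 in replicate 1 and 49.4 in replicate 2. After xbp-1 this was the highest promoter signal of the members. The same summit also lay in the promoter of imp-2, so it cannot be assigned to enpl-1 alone.

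The 3 protein disulfide isomerase genes, whose products form and rearrange disulfide bonds in the ER, each had an optimal promoter summit. At pdi-6 (chromosome X, 7066342 to 7068563, minus strand) it lay at −39 bp with a signal of 57.6, with 20.2 in replicate 1 and 34.9 in replicate 2. At pdi-3 (chromosome I, 7015908 to 7020797, minus strand) it lay at −633 bp with 55.0, with 16.2 in replicate 1 and 41.1 in replicate 2, and at −542 bp from the start of ubql-1, which is nearer. An intronic summit of pdi-3, 614 bp past its start, had a signal of 52.1, with 9.06 in replicate 1 and 47.5 in replicate 2. At pdi-2 (chromosome X, 4524155 to 4526536, plus strand) the promoter summit at −33 bp had 40.5, with 26.3 in replicate 1 and 13.6 in replicate 2. Of the 8 member promoter peaks, that of pdi-2 was the only one whose signal was lower in replicate 2, although the lists are scaled separately. Past the end of pdi-2, summits with 56.8 and 81.5 lay closest to the start of nhr-35.

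Because signal is scaled within a list, replicates were compared by rank among the 4703 optimal peaks that both replicates overlapped, with 1 as the strongest. The peaks upstream of ire-1 (83rd in replicate 1, 188th in replicate 2) and in the xbp-1 promoter (121st and 337th) were near the top in both. The enpl-1 promoter peak (1810th in replicate 1, 1639th in replicate 2), that of pdi-3 (2586th and 2263rd) and that of hsp-3 (2574th and 2825th) kept to the middle in both. The promoter peaks of ire-1 (1821st in replicate 1, 4065th in replicate 2) and atf-6 (1693rd and 4271st) stood far lower in replicate 2, and that of pdi-6 (1840th and 2904th) lower by less.

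The pdi-2 promoter peak was 1040th in replicate 1 and 4689th in replicate 2, a difference of 3649 places, and 10 of the 4703 peaks (0.213%) fell by as many or more. The pdi-2 peak with a signal of 56.8 was among those 10 too, at 628th in replicate 1 and 4423rd in replicate 2, where its signals were 31.3 and 21.7. This pair was singled out after the values were seen. The remaining pdi-2 peak, the one with 81.5, went the other way (1807th in replicate 1, 839th in replicate 2). Over the 21 member peaks, the median absolute difference in rank was 1064 places, against 764 over all 4703. Leaving out replicate 1, by taking the 4739 strongest peaks of replicate 2 alone, left 7 of 10 members with a promoter summit, pdi-2 no longer among them, against 12.7% of all genes in that list. Leaving out replicate 2 in the same way gave 10 of 10, with pek-1 and hsp-4 included, again against 12.7% of all genes.

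**Figure D2:**
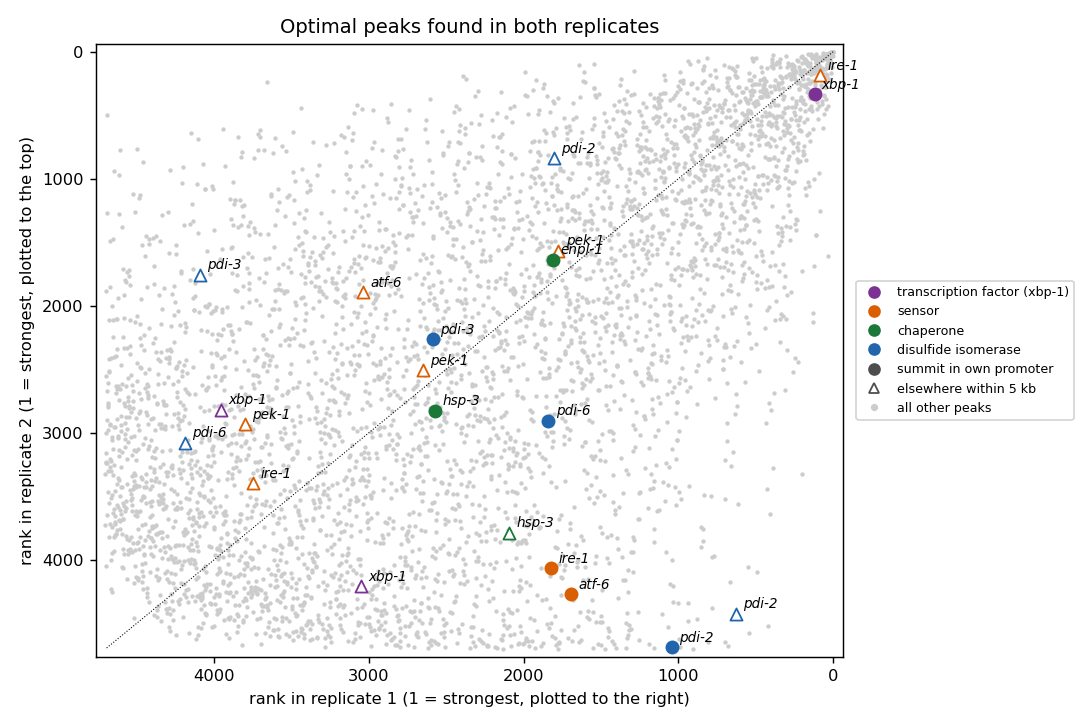
Rank of the 4703 optimal peaks found in both replicates, replicate 1 on the x axis and replicate 2 on the y axis, both axes reversed so that the strongest peaks are at the upper right, with the dotted line at equal rank. Coloured circles are the 8 member promoter peaks, triangles the 13 other member peaks and grey points all other peaks. The circle of pdi-2 is at the bottom edge (1040th, 4689th), and those of ire-1 and atf-6 also lie well below the line.

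Sensors and folding genes were compared by the strongest summit of each gene, as a rank percentile within each list, 100 being the strongest. With summits within 5 kb, the median of the 3 sensors was 93.0 in replicate 1 and that of the 6 folding genes 91.9, a difference of 1.17 points. In replicate 2 the sensors had 91.9 and the folding genes 88.0, a difference of 3.82 points. With the strongest summit in the promoter, the sensors had 92.5 and the folding genes 90.8 in replicate 1 (1.70 points). In replicate 2 the sensors had 75.8 and the folding genes 85.01 (−9.18 points). In the pooled list, the difference was 4.54 points within 5 kb (92.2 for sensors, 87.7 for folding genes) and −4.39 points in the promoter (80.7 for sensors, 85.1 for folding genes).

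The ranges of the groups overlapped in all of these comparisons. In replicate 2, for example, the sensors' promoter percentiles ran from 66.7 to 77.7 and those of the folding genes from 60.05 to 91.5. The strongest promoter summit was not always the same site in both replicates. That of pdi-2 lay at −25 bp in replicate 1 and at −614 bp in replicate 2. That of hsp-4 lay at −313 bp in replicate 1 and at −67 bp in replicate 2. In replicate 2 the strongest summit within 5 kb of each sensor was nearer to another gene, namely ulp-4 for ire-1, F45E6.1 for atf-6 and F08B12.4 for pek-1, and the difference was −9.18 points with summits nearest to the gene's own start. In replicate 1 the median sensor was atf-6 with its own promoter summit, and the difference with own-start summits was 1.70 points. Neither group was higher than the other in every list and window. Among the optimal peaks, the promoter signals were 40.4 and 40.8 for 2 of 3 sensors, with a median of 40.6, and ran from 40.5 to 66.6 for 5 of 6 folding genes, with a median of 55.0. The median over all 2553 genes with an optimal promoter summit was 55.1, so the median of those 5 folding genes lay at the level of the list as a whole. It leaves out hsp-4, whose pooled promoter signal of 23.2 is below the optimal list. The xbp-1 signal, at 136, lay apart from both groups.

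**Figure D3:**
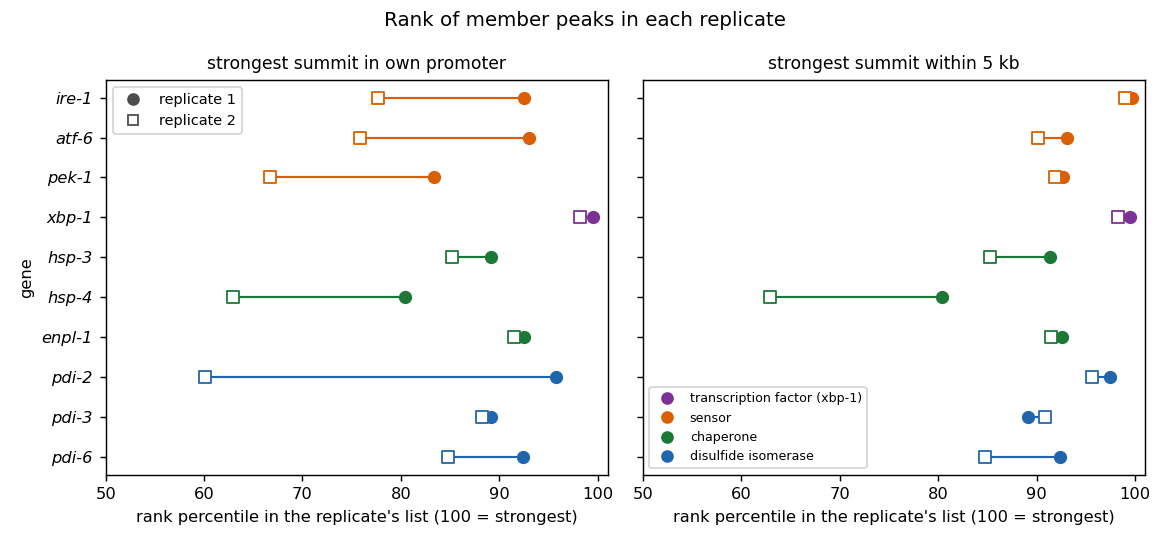
Rank percentile of the strongest summit of each gene in replicate 1 (filled circles) and replicate 2 (open squares), in the promoter on the left and within 5 kb on the right, with 100 as the strongest peak of that replicate's list and a line joining the values of 1 gene. On the left, the 3 sensors lie between 66.7 and 77.7 in replicate 2. The folding genes enpl-1, pdi-3, hsp-3 and pdi-6 lie higher there, and pdi-2 (60.05) and hsp-4 (62.9) lie lower. On the right the 3 sensors lie between 90.1 and 99.7. The lists differ in length, and the joined summits can be different sites of a gene, as in the promoters of pdi-2 and hsp-4. The joined values are therefore not a measure of change.

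The DAE and its GATA core were counted at the summits. In windows that reached 100 bp to each side of the summit, searched on both strands, TGATAAG was in 5 of 21 member windows (23.8%), against 44.1% of all 4739. The exact Clopper-Pearson 95% interval of the member share was 8.22% to 47.2%. It covers counting error only and takes the 21 windows as independent, although they come from 9 genes. The shorter word GATAA, which every TGATAAG contains, was in 12 of 21 (57.1%), against 83.2%. Neither difference was tested. The member windows with TGATAAG were those of the xbp-1 promoter and of 1 distal summit each at ire-1, pek-1, pdi-2 and pdi-6. In the 2 strong windows printed above, its centre lay at −47 bp from the xbp-1 summit and at −50 bp from the upstream ire-1 summit, counted along the reference strand. The upstream ire-1 window held 4 copies of GATAA.

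The members' promoter and distal windows differed in these counts. Of the 8 member promoter windows, 2 held GATAA (25%, at xbp-1 and ire-1), against 79.7% of all 2234 promoter summits. Of the 13 other member windows, 10 did (76.9%), against 86.2% of the 2505 optimal summits in no promoter. Some of those 13 lie in promoters of other genes. TGATAAG was in 1 of the 8, against 42.7% of all promoter summits. The printed atf-6, enpl-1 and pdi-6 windows have neither word. The 8 windows were also rich in G and C, with a median of 53.7% (39.8% at xbp-1, 64.2% at pdi-2). The median was 36.3% both for the 13 other member windows and for all promoter summits, and 37.3% for summits in no promoter. The pdi-2 window equalled the highest value in the optimal list. A member promoter window without GATAA had at least 48.8% G and C.

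Of these same 8 peaks, 6 stood higher in replicate 1 (median 658 places over the 8), as did 4 of the 13 other member peaks (median −351 places over the 13). Among all peaks found in both replicates, 49.3% of promoter peaks and 49.4% of peaks in no promoter did. Over the whole optimal list, the 453 promoter summits without GATAA were higher in replicate 1 in 60.7% of cases, had a median of 42.3% G and C and a median signal of 45.5, whereas those with GATAA were higher in replicate 1 in 46.3%, with 35.3% G and C and a signal of 59.2. At the members, both promoter peaks with the word stood higher in replicate 1, as did 4 of the 6 without it. These are too few to set against the shares of the whole list. The part of base composition in these ranks was not tested.

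**Figure D4:**
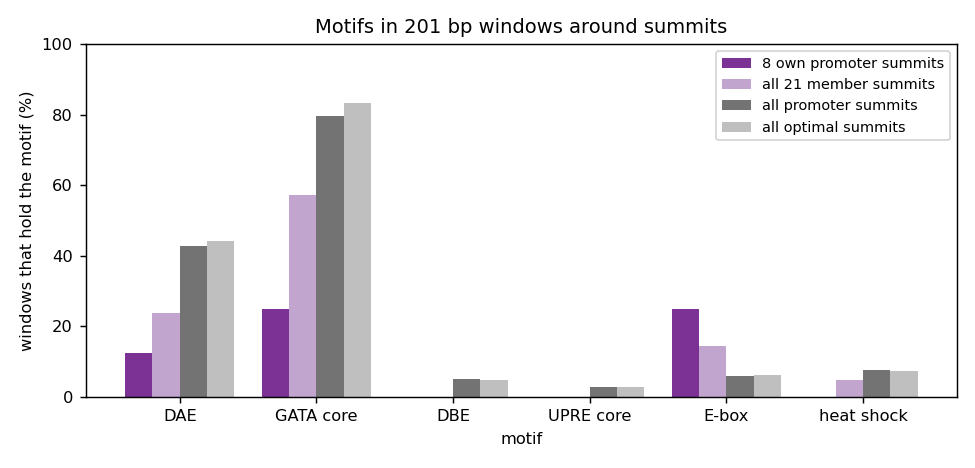
Share of windows reaching 100 bp to each side of a summit (percent, y axis) that hold each of 6 words, named on the x axis as in the text. Bars are, from left, the 8 member promoter summits, all 21 member summits, all promoter summits and all optimal summits. The GATA core is in 25% of the first class and in 79.7% of all promoter summits.

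Other words were rare at member summits. The DAF-16 binding element (DBE) GTAAACA was in 0 of 21 windows, against 4.9% of all, and the unfolded protein response element (UPRE) core TGACGTG in 0 of 21, against 2.91%. The E-box CACGTG was in 3 of 21 (enpl-1, pdi-3 and 1 distal pdi-2 summit), against 6.27%, and the heat shock word TTCNNGAA in 1 of 21, against 7.43%. These counts are too small to set the members apart. The xbp-1 window holds TGACGTCA, the palindromic cyclic AMP response element, at −69 bp from the start, 4 bp from the summit. This word was searched for after the sequence had been seen, and it was in 1 of 21 member windows against 1.1% of all.

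Between 250 bp before and 50 bp after each gene start, TGACGTG occurred in 2 of 10 members, hsp-3 (centre at −129 bp) and hsp-4 (−80 bp), and in 2.95% of all genes. These are the copies in capitals in the printed sequences. The strongest hsp-3 promoter summit was at −113 bp in the replicate 1 list. It was 8 bp past the start in the replicate 2 list and 6 bp past it in the optimal list. At hsp-4 the replicate 2 list had summits at −67 bp and −283 bp. The strongest hsp-4 promoter summit was at −313 bp in the replicate 1 list and at −320 bp in the pooled list. A copy of GATAA at hsp-4, in lower case in the printed sequence, had its centre at −69 bp. Between 250 bp before and 50 bp after the start, TGATAAG occurred at xbp-1 alone among the 10 (−120 bp), and in 9.23% of all genes. A match to a word is not evidence of a factor at it.

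Beyond the 10 members, a wider list of ER genes, 58 matched genes in 6 groups with the members included, was examined for optimal promoter summits. A promoter summit was present at 22 of 58 (37.9%), and at 14 of 48 (29.2%) without the members, against the 12.8% of all genes. Signalling genes had it at 4 of 7, adding atf-4, the transcription factor translated when eIF2α is phosphorylated, with a signal of 40.6 (12.6 in replicate 1, 25.7 in replicate 2). The promoter of another gene also held the atf-4 summit. Chaperones and their partners had it at 5 of 10, led by stc-1, an HSP70-like protein, with 111 (27.5 in replicate 1, 93.9 in replicate 2), a summit nearer to F54C9.3. Genes of disulfide formation had it at 4 of 8. Among these pdi-1 had 49.1, and, like pdi-2, a lower signal in replicate 2 (17.1) than in replicate 1 (30.1). The pdi-1 summit also lay in the promoter of C14B1.2.

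Lectin chaperones and glycosylation genes had a promoter summit at 4 of 11. The homologues of UDP-glucose glycoprotein glucosyltransferase, which tags misfolded glycoproteins for another folding cycle, were both among them, uggt-1 with 75.7 and uggt-2 with 63.8, followed by aagr-3 with 42.2 at a site nearer to drap-1. Translocation genes had it at 4 of 10, with trap-2 at 74.0, trap-1 at 57.8, both subunits of the translocon-associated complex, and sec-61.B and trap-3 sharing 1 summit of 31.9. The trap-2 summit also lay in the promoter of ile-2. ER-associated degradation genes had it at 1 of 12 (8.33%), near the share of all genes, and that 1 gene, cdc-48.1, an AAA ATPase that extracts proteins for the proteasome, had the highest promoter signal of the whole list at 156 (48.7 in replicate 1, 104 in replicate 2). The difference between the degradation genes and the other groups was not tested.

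**Figure D5:**
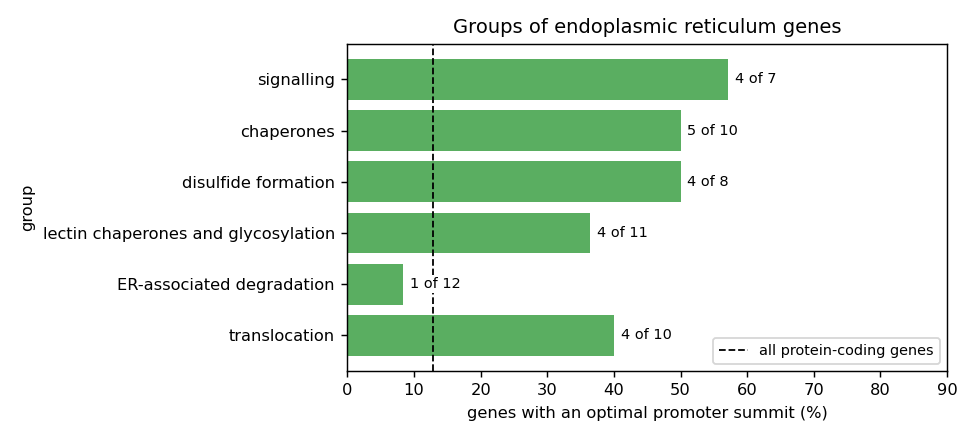
Share of genes (percent, x axis) with an optimal PQM-1 summit in the promoter, in 6 groups of ER genes that include the 10 members, with the count beside each bar and the dashed line at 12.8%, the share of all nuclear protein-coding genes. Of the groups, ER-associated degradation (1 of 12) is the one below the line.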

How the data were processed

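The members and gene lists were chosen with earlier results of these data known. Each peak list gives a signal per peak, which the authors computed relative to a control alignment, per the readmes deposited with the samples, and a −log10 q value, which the authors' lists cap and which was not used for ranking. Of the deposited lists, 4 on build ce11 were used: optimal (IDR-thresholded), pooled, replicate 1 (its 2 libraries in 1 list) and replicate 2. For the caller, aligner and IDR threshold, a name or value was not given in the sources used here. The control library was not analysed here. Both replicates come from 1 strain and differ in biosample, per the labels. Genes are Ensembl release 115 on WBcel235. Peaks were assigned to replicates by at least 1 bp of overlap. Everything is descriptive, with counts beside those of all genes or peaks, and with no test. Named genes are the 10 members, genes sharing their peaks, up to 3 genes per wider group by signal, the 3 genes most like xbp-1, and pqm-1. Of 65 names in the wider list, 58 matched. The procedures were checked on made-up data. Python 3.11.15, numpy 2.4.6, scipy 1.17.1 and matplotlib 3.10.9 were used. Alternatives covered the threshold, replicates, distances, promoter size, start, summary and windows.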

Additional observations from a re-analysis of the deposited data

How the results depend on the processing

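The count of members with an optimal summit within 5 kb was 7 to 10 under the alternatives tried, while the share of all genes ran from 17.8% (nearest start) to 58.6% (10 kb) and was 25.4% with the stronger 50% of the peaks. The promoter count was 7 to 10, against 9.64% to 17.2% of all genes, except that 3 members (xbp-1, enpl-1 and pdi-6) remained with the stronger 50% of the peaks, against 6.34% of all genes. The wider ER list then had 9 genes. Leaving out replicate 1 or 2 gave 9 or 10 members within 5 kb (41.8% or 41.2% of all genes), 7 or 10 in the promoter and 18 or 24 genes of the wider list (12.7% of all genes in either case), and 20% or 18.2% of member summits with TGATAAG. That share was 12.5% to 23.8% under the other settings. The 12.5% is that of member promoter summits, against 42.7% of all promoter summits. For the other alternatives no share over all summits is given, so they do not show whether the difference from 44.1% holds. The sensors minus folding genes difference was the least stable. In replicate 1, it was 4.40 points with xbp-1 counted as a sensor, 4.59 with means in place of medians, 2.84 with ranks within peaks that overlap an optimal peak, 0.622 within 2 kb and 0.566 within 10 kb. In replicate 2, it was 7.01 with xbp-1 counted as a sensor, 8.52 with means and 0.693 within 10 kb, and its direction reversed with promoter summits (−9.18), within 2 kb (−7.32) and with summits nearest to the gene's own start (−9.18, a setting added after the data were seen). Ranks within peaks that overlap an optimal peak could not include hsp-4. The SD between the replicates of the difference within 5 kb was 1.88 points, and the promoter differences (1.70 and −9.18) lay further apart. No paired analysis was possible because there is 1 group. Read depth is unknown, the replicates number 2, and peaks shared with a neighbouring gene cannot be assigned to either gene.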

Other observations

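The gene that encodes the targeted protein, pqm-1 (ce11, chromosome II, 11150391 to 11152595), had 0 summits within 5 kb in each of the 4 lists, background peaks included. Of all 19973 genes, 8334 had such a summit in the optimal list and 15879 in the pooled list. In the replicate lists 17746 (replicate 1) and 16323 (replicate 2) had it. Why pqm-1 has none was not tested, and its absence from the lists does not show that the locus is unoccupied. Between 1000 bp before and 200 bp after the start, GATAA occurred at 9 of 10 members, all but pdi-2, and in 95.1% of all genes, and TGATAAG at 1 of 10 and in 23.7% of all genes. The member promoters thus hold GATAA somewhere about as often as promoters do in general, while 2 of their 8 optimal summits had it within 100 bp.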
